A study of Monodelphis domestica and Mus musculus and Sus scrofa with 73 samples.

Results

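Gene expression in the forelimb and the hind limb of bat embryos (Carollia perspicillata, the short-tailed fruit bat) was compared at stage 15 of the embryonic staging series for this bat, when the limb has the shape of a paddle. A gene was tested when RSEM, the program that assigned the reads, gave it a rounded expected count of at least 10 in 2 or more of the 4 libraries of that stage. This left 14826 of the 27026 genes in each table. Of the 16 bat limb libraries of the series, these 4 are the stage 15 libraries, with 2 libraries of each limb.

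The forelimb libraries carry the term late-stage (LS) as their stage label, which the extraction protocol sets at stage 15, and the hind limb libraries carry the stage number itself. At this stage the wording of the label and the limb cannot be told apart. The sample numbers of the limbs also lie in separate blocks of the series, and the paper describes RNASeq of forelimbs only. The paper does not state whether these libraries were prepared or sequenced together, so any such difference goes with the limb too. The embryos of both groups were wild, collected in the field in Trinidad, and no genotype, treatment or age in days separates the groups. Whole limbs were stored in RNALater, an RNA preservative, and sequenced as RNASeq libraries after the same kit protocol. The labels do not say whether 2 libraries of a limb came from separate embryos, or whether a forelimb and a hind limb library came from the same one, so the p-values measure the spread between these libraries, which may in part be technical.

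The bat forelimb becomes the wing, whose digits lengthen far beyond those of the hind limb, while the hind limb forms a small foot with short free digits. The early limb buds of tetrapods are built with largely the same signaling centers, and a small number of transcription factor genes are restricted to one of the limbs: Tbx5 to the forelimb, Tbx4 and Pitx1 mainly to the hind limb. In most mammals the forelimb also develops somewhat ahead of the hind limb. Because no genome of this bat was used, the genes here are components of a transcriptome that the authors assembled from the reads, and the files do not pair these components with gene names. Which component, if any, stands for a gene such as Tbx5 or Pitx1 is therefore not known here, and neither the limb labels nor the tissue could be checked against marker genes. The paper does not state whether hind limb reads entered the assembly, and a transcript absent from it could not be counted. Whether this bears on the number of genes called in each direction was not tested. Components are named by their identifiers, and no sequence of them was used here.

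At stage 15 the forelimb libraries held 18675055 and 16243535 expected counts, and the hind limb libraries 37311327 and 16876665. One hind limb library was thus sequenced about as deeply as the forelimb libraries and the other more deeply. Between 17095 and 19007 genes were detected with 1 count or more after rounding. At these depths 3 counts amount to between 0.0804 and 0.185 CPM (counts in 1000000 counts of a library), which limits what could be seen of weakly expressed genes and covers counting error only. Neither pair of replicates was a copy of one library, since their counts differed by a chi-square of 21.6 (forelimb) and 18.9 (hind limb) per degree of freedom. Across the tested genes, 605 (4.08%) differed at least 2-fold between the 2 forelimb libraries and 276 (1.86%) between the 2 hind limb libraries, so the forelimb libraries lay further from each other.

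Between the limbs, 122 genes (0.823% of those tested) differed at an adjusted p under 0.05 by edgeR's quasi-likelihood test with Benjamini-Hochberg adjustment. Of these, 101 (0.681%) were higher in the forelimb and 21 (0.142%) were lower. Before adjustment 1186 genes had a p under 0.05. The median log2 fold change over all tested genes was 0.0079. The scaling of the libraries (TMM factors) holds this median near 0, so it does not bear on the surplus of genes called higher in the forelimb. The count moved with the libraries that entered the fit. Only 8 genes, 4 in each direction, passed when all 16 bat libraries entered the fit, and all 8 were among the 122. With the libraries left out in turn the count ran from 65, without replicate 2 of the hind limb, to 317, without replicate 1 of the forelimb. In bulk tissue, fewer cells of a type and less RNA per cell cannot be told apart, and this holds for every difference given here.

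**Figure D1:**
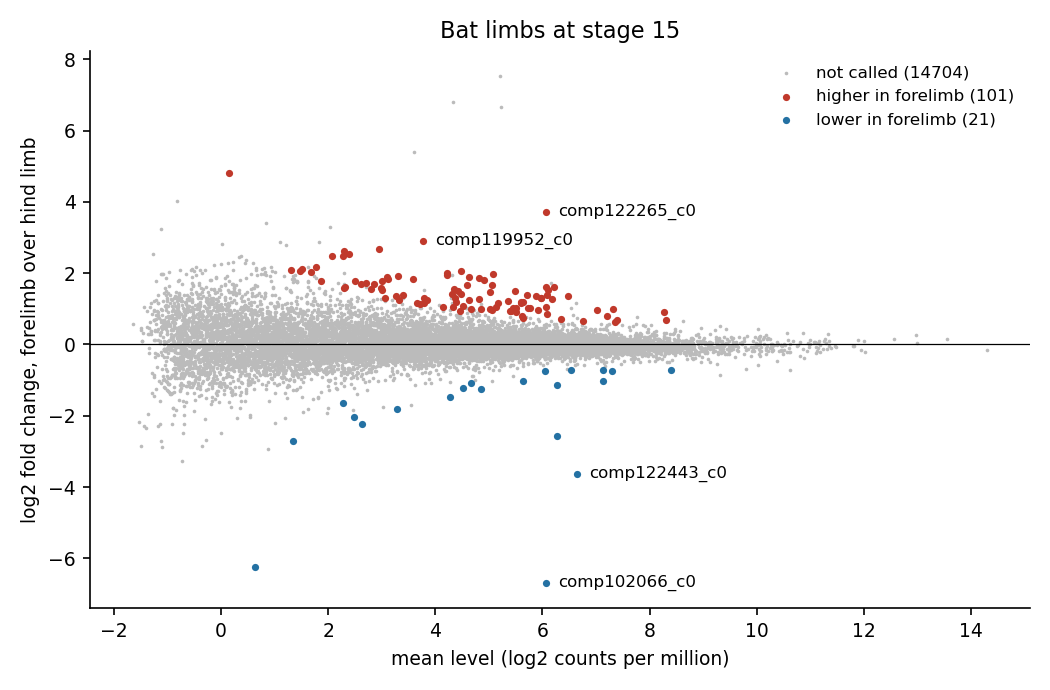
Each point is 1 of the 14826 genes tested at stage 15, with its mean level in log2 CPM on the horizontal axis and the log2 fold change of forelimb over hind limb on the vertical axis; genes higher in the forelimb (101) and lower in the forelimb (21) are coloured, and the others are grey. The share called is 0.506% in the lowest of 3 equal classes of level, 1.07% in the middle one and 0.890% in the highest, and of the 9 grey genes that differ 8-fold or more, 4 had forelimb replicates at least 8-fold apart.

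The genes higher in the forelimb differed by a median of 2.57-fold, from 1.54-fold to 28.3-fold. Of the 101, 80 differed at least 2-fold, 14 at least 4-fold and 2 at least 8-fold. The 21 genes lower in the forelimb differed by a median of 2.37-fold, from 1.64-fold to 102-fold, with 16, 7 and 3 genes past the same marks. Differences of 8-fold or more were thus 2 of 101 genes in one direction and 3 of 21 in the other. The limbs did not overlap in CPM for any of the 122 genes, while 19.2% of all tested genes lay wholly above in the forelimb and 17.6% wholly below. RSEM also reports an interval for each FPKM value (a level per transcript length and library size), which covers the uncertainty of read assignment in 1 library. These intervals were apart in all 4 pairs of a forelimb and a hind limb library for 97 of the 101 genes and for all 21, against 4.31% and 2.37% of the tested genes in the same directions. The genes were chosen on the counts of these 4 libraries, so both kinds of separation were largely set beforehand. The weakest gene still called had an adjusted p of 0.0487 and a log2 fold change of 0.63 in size, and the next gene had 0.0516 and 0.78, by edgeR.

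The 4 genes named here were picked by a set rule, the smallest p-value and the largest fold change in each direction among genes with at least 10 counts in all 4 libraries. For comp102066_c0, the gene with the largest difference of all 122, the forelimb libraries held 1.22 and 1.36 CPM, from 23 and 22 counts, and the hind limb libraries 101 and 164, from 3762 and 2759 counts. The gene was low but counted in both forelimb libraries, above the 3 counts taken as the limit, and high in both hind limb libraries. The mean was 1.29 ± 0.098 in the forelimb and 133 ± 44 in the hind limb (CPM, SD, n = 2 each). Its log2 fold change was -6.68 with a standard error of 0.297, a 102-fold difference, with an adjusted p of 1.34e-06 by edgeR. The deposited FPKM were 1.91 and 2.09 in the forelimb and 156 and 253 in the hind limb, and none of the intervals of the limbs overlapped. Its assembled length is 981 bases, in a single isoform.

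Gene comp122443_c0 had the smallest p-value of all genes tested. It stood at 14.5 and 15.0 CPM in the forelimb libraries and at 165 and 203 in the hind limb libraries, so that even the lower hind limb value was far above both forelimb values. The log2 fold change was -3.64 with a standard error of 0.165, which is 12.5-fold lower in the forelimb, with an adjusted p of 1.24e-07 by edgeR. Unlike the gene above it was well expressed in both limbs, and its spread between the forelimb libraries was small (14.7 ± 0.37 CPM, SD, n = 2). Its FPKM were 5.92 and 6.03 in the forelimb against 65.2 and 81.6 in the hind limb.

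In the other direction, comp122265_c0 had the smallest p-value of the 101 genes. The forelimb libraries held 131 and 118 CPM of it and the hind limb libraries 7.61 and 11.6. Its log2 fold change was 3.73 with a standard error of 0.208, 13.2-fold higher in the forelimb, with an adjusted p of 1.34e-06 by edgeR. The FPKM of 38.9 and 31.4 in the forelimb against 2.61 and 3.70 in the hind limb put the 4 libraries in the same order. The mean length over its 2 isoforms, weighted by RSEM, was 531 bases longer in the forelimb libraries, the largest such difference among the named genes. The hind limb lengths rest on 282 and 195 counts, and whether the use of isoforms differed was not tested.

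The fourth gene, comp119952_c0, had the largest fold change among the remaining genes with enough counts. It was at 31.4 and 17.0 CPM in the forelimb libraries, the first well above the second, and at 3.10 and 3.32 in the hind limb libraries. The log2 fold change was 2.92 with a standard error of 0.316, 7.55-fold higher in the forelimb, with an adjusted p of 0.00101 by edgeR. Its expected counts were whole numbers to within 0.05 in the 4 libraries, whereas those of the other 3 named genes were not, which marks reads that RSEM divided between components. The 4 genes kept their direction in all 39 alternative fits in which they were tested. Those fits draw on the same stage 15 libraries, in which the limbs did not overlap, so the direction was largely set beforehand.

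**Figure D2:**
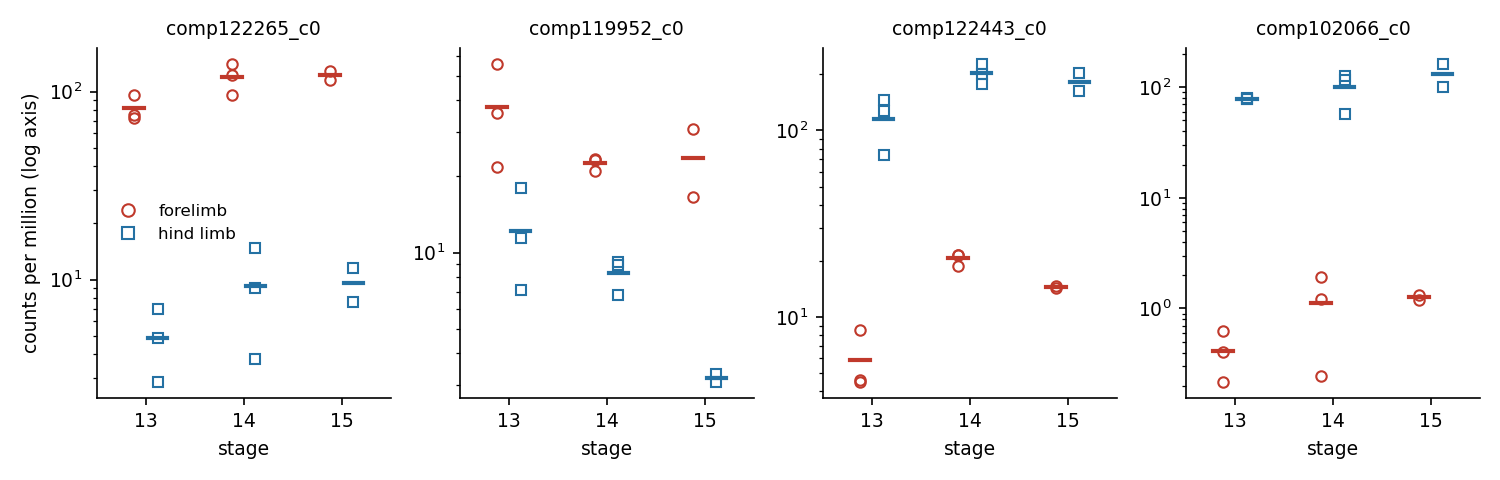
Levels in CPM of the 4 named genes on a log axis (vertical) at stages 13, 14 and 15 (horizontal), each point 1 of the 16 bat libraries, circles for the forelimb and squares for the hind limb, with a bar at each group mean. At stage 15 the forelimb points of comp122265_c0 lie at 129 and 115 on the scale of all 16 libraries, against 7.55 and 11.5 in the hind limb, and comp102066_c0 is low in every forelimb library of all 3 stages.

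Few of the called genes rested on small counts. At least 10 counts were found in all 4 libraries for 119 of the 122 genes, 100 of those higher in the forelimb and 19 of those lower, and no tested gene was at 0 in both libraries of a limb. The exceptions include the gene with the largest rise, 28.3-fold, which had 23 and 53 counts in the forelimb libraries against 3 and 1 in the hind limb libraries. At the other end, a gene called lower had 1 and 0 counts in the forelimb and 115 and 34 in the hind limb. Fitted fold changes of such genes depend on the small count that edgeR adds, and they are not bounds. Large differences were often not called: of the 733 tested genes that differed at least 2-fold, 96 were called, and of the 84 that differed at least 4-fold, 21 were called.

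In length the called genes were close to the tested genes, and in other properties of the assembly they were less so. The median length was 2245 bases for genes higher in the forelimb and 1968 for genes lower, against 2114 for all tested genes. The median level was 24.8 and 49.7 CPM, against 22.0. With the genes split by level into 3 equal classes, the middle class held the largest share of calls at 1.07%, with 0.506% in the lowest class and 0.890% in the highest. Among tested genes under 500 bases, 1 (0.203%) was called. From 500 bases upward the share lay between 0.822% and 0.913% in each class of length. Genes with 1 isoform were called in 1.08% of cases, those with 2 to 4 isoforms in 0.666% and those with 5 or more in 0.630%. The 122 genes came from 121 components of the assembly. Whether different components stand for parts of the same gene was not tested. RSEM divided reads with other components for 63.4% of the genes higher in the forelimb and 81.0% of the genes lower, against 63.3% of all tested genes, and for these the level depends on how the reads were shared out.

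The same limbs were also sequenced at stages 14 and 13, with 3 libraries of each, and no stage 15 library enters these comparisons. Stage 14 gave 23 genes past the threshold of 14829 tested (0.155%), 17 higher (0.115%) and 6 lower (0.0405%) in the forelimb, and 1081 genes with an unadjusted p under 0.05. Stage 13 gave 11 genes of 14729 (0.0747%), 4 higher (0.0272%) and 7 lower (0.0475%), and 895 at the unadjusted level. The spread between libraries differed as well: the biological coefficient of variation fitted by edgeR was 0.174 at stage 15, 0.226 at stage 14 and 0.295 at stage 13. The counts of calls at the 3 stages are therefore not on one footing. At stage 13, 1 library decided the count, since 1144 genes passed without replicate 3 of the forelimb. This replicate has the lowest total of the 16 libraries. It also detected 20064 genes, more than forelimb replicates 1 and 2 (18581 and 18163). The stage 13 hind limb libraries detected 20109 to 20495. Which of these traits bears on the count was not tested.

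Of the genes higher in the forelimb at stage 15, 92 could be tested at stage 14, and their log2 fold changes there had a median of 0.24. The sign was the same for 60 of them (65.2%), compared with 50.7% of all genes that leaned to the forelimb at stage 15. The limbs did not overlap, in the same direction, for 25 of the 92 (27.2%). This held for 11.6% of genes leaning to the forelimb at stage 15 and 8.4% of all genes tested at both stages. In the opposite direction it held for 1 of the 92. Of the 92, 4 were called in the same direction, against 13 of the 7239 genes leaning to the forelimb. With a library left out in turn the median ran from 0.16, without replicate 2 of the hind limb, to 0.33, without replicate 1 of the hind limb. At stage 13 the median of 87 such genes was -0.10 and 41 (47.1%) had the same sign, compared with 57.6% of all genes leaning to the forelimb. Without replicate 1 of the stage 13 hind limb this median was 0.11. There, 13 of the 87 (14.9%) did not overlap in the same direction, against 7.02% of genes leaning to the forelimb and 5.55% of all genes. Another 4 did not overlap in the opposite direction. Of the 87, 2 were called in the same direction, against 3 of the 7008 genes leaning to the forelimb. At stage 15, in the libraries that chose the genes, the medians were 1.31 for the same 92 genes and 1.28 for the same 87. At stage 14 the libraries of the limbs overlapped in the median of the list: relative to the mean of the hind limb libraries, hind limb replicate 1 was at 0.35, above all 3 forelimb libraries (0.14 to 0.30).

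The 21 genes lower in the forelimb at stage 15 were lower at both earlier stages in most cases. At stage 14 their median log2 fold change was -0.20, with the same sign in 15 of 21 (71.4%, against 61.1% of all genes leaning to the hind limb). Of the 21, 4 were called in the same direction, against 6 of the 7100 genes leaning to the hind limb. At stage 13 the median was -0.58, with the same sign in 15 of 20 (75%, against 55.8%). Of the 20, 4 were called in the same direction, against 7 of the 6990 genes leaning to the hind limb. The limbs did not overlap in the same direction for 7 genes at stage 14 (33.3%), against 7.9% of genes leaning to the hind limb and 6.17% of all genes. At stage 13 this held for 9 genes (45.0%), against 5.31% and 4.96%. In the opposite direction the limbs did not overlap for 2 genes at stage 14 and for 1 at stage 13. Single libraries moved these medians. The stage 14 median was -0.058 without replicate 3 of the hind limb and -0.33, -0.31 and -0.30 without forelimb replicate 1, forelimb replicate 3 and hind limb replicate 2. The stage 13 median was -0.94 without replicate 3 of the forelimb.

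**Figure D3:**
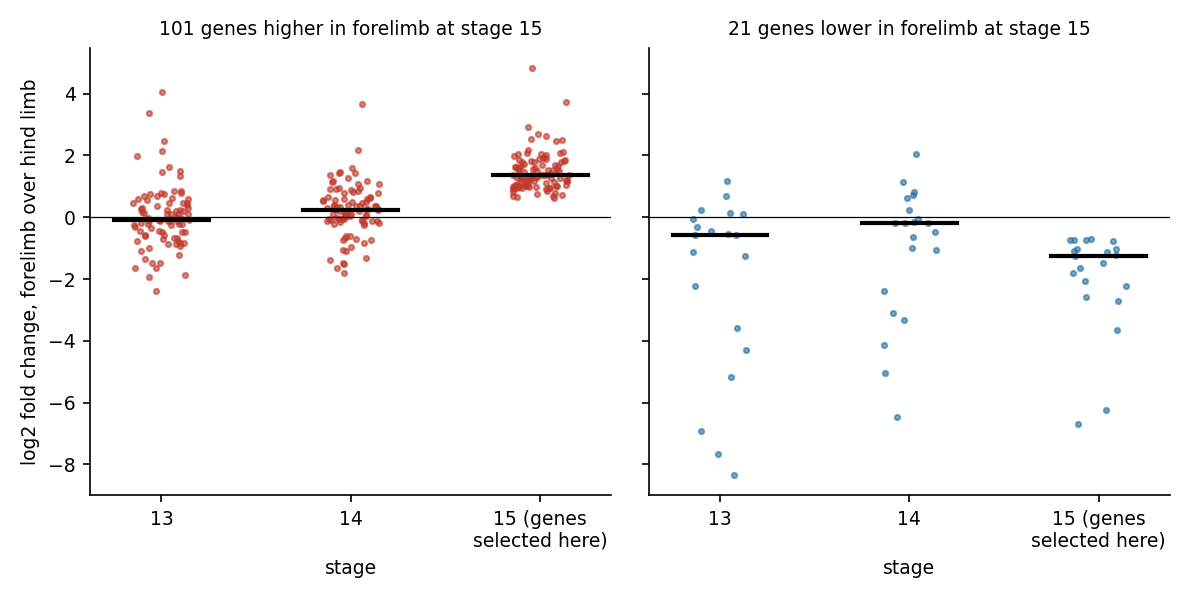
Log2 fold change of forelimb over hind limb (vertical axis) at stages 13, 14 and 15 (horizontal axis) for the genes called at stage 15, with the 101 genes higher in the forelimb in one panel and the 21 genes lower in the other, each point a gene tested at that stage and each bar the median. The genes were selected at stage 15, where the separation from 0 follows from the choice; their medians at stages 14 and 13 are 0.24 and -0.10 for the first panel and -0.20 and -0.58 for the second.

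Of the 107 called genes that could be tested at all 3 stages, 45 (42.1%) had the same sign at each, 31 of them higher and 14 lower in the forelimb, compared with 32.3% of all 13930 genes tested at every stage. The threshold was passed at all 3 stages by 4 genes, 1 higher and 3 lower. Of these, 3 are among the named genes. For comp102066_c0 the log2 fold change was -6.47 at stage 14 and -7.66 at stage 13, with adjusted p-values of 0.00349 and 3.99e-05 by edgeR. The hind limb libraries ran from 57.5 to 127 CPM at those stages, and every forelimb library was at 1.91 or below. The difference between the limbs was of the same order from stage 13 to stage 15.

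Gene comp122443_c0 differed by -3.31 at stage 14 and -4.29 at stage 13 on the log2 scale (adjusted p = 9.11e-06 and 0.00654, edgeR). In the forelimb it went from 4.49 to 8.56 CPM at stage 13 to between 18.8 and 21.6 at stage 14, a log2 change of 1.79 with an adjusted p of 0.0155 by edgeR, while the stage 15 values were 14.3 and 14.7. In the hind limb the stage 13 values lay between 73.9 and 145 and the stage 14 values between 177 and 228, a log2 change of 0.79 that missed the threshold (adjusted p = 0.0576, edgeR). The limbs stayed apart at each stage although the level moved within the forelimb.

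Gene comp122265_c0 was higher in the forelimb by 3.67 at stage 14 and 4.06 at stage 13 on the log2 scale (adjusted p = 0.0188 and 0.00333, edgeR). Its lowest forelimb library over all stages held 72.3 CPM and its highest hind limb library 14.8. The 4th gene called at every stage, which is not named, had a log2 fold change of -2.57 at stage 15. Gene comp119952_c0 followed another course. It was higher in the forelimb by 1.43 at stage 14 (adjusted p = 0.0242, edgeR) and by 1.63 at stage 13, which missed the threshold (adjusted p = 0.441, edgeR). Its hind limb level was 7.08 to 18.0 CPM at stage 13, 6.79 to 9.15 at stage 14 and 3.08 to 3.30 at stage 15, and the step from stage 14 to 15 was -1.38 on the log2 scale, in a comparison that shares the stage 15 libraries (adjusted p = 0.0277, edgeR). In the forelimb the same step was 0.085 (adjusted p = 0.854, edgeR). The larger gap at stage 15 thus went with a lower hind limb value. The difference between the stages in the limb effect, 1.45 with a standard error of 0.370, did not pass the test over all genes (adjusted p = 0.503, edgeR).

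Read the other way, most genes called at the earlier stages kept their sign at stage 15. Of the 17 genes higher in the forelimb at stage 14, 16 were tested at stage 15, 13 had the same sign and 4 were called. All 6 lower genes of stage 14 had the same sign and 4 were called. Over all genes tested at both stages, 57.0% of those leaning to the forelimb at stage 14 and 54.8% of those leaning to the hind limb kept their sign, and at stage 15 the called shares were 0.681% and 0.142%. Of the 4 genes higher in the forelimb at stage 13, 3 had the same sign and 2 were called, and of the 7 lower genes all had the same sign and 4 were called, where 56.7% and 56.8% of all genes leaning to either side at stage 13 kept their sign.

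Whether the limb difference itself changed between stages was tested as an interaction of limb and stage. By edgeR no gene passed, of 16091 tested between stages 15 and 13 and of 15783 between stages 15 and 14. Unadjusted p-values under 0.05 were found for 694 and 771 genes, and DESeq2 called 64 and 58. Among the 101 genes higher in the forelimb at stage 15, the limb difference was larger at stage 15 than at stage 14 for 93 genes, with a median interaction of 1.12 on the log2 scale, and 62 had an unadjusted p under 0.05. Against stage 13 the values were 93 genes, 1.26 and 59. For the 21 lower genes the median was -0.91 against stage 14 and -0.20 against stage 13. The choice of the genes at stage 15 enters each of these values, so they describe the genes and do not test them.

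The levels in the 6 groups show in which limb and stage the called genes were found. For the genes higher in the forelimb, the median level was 5.75 CPM in the forelimb at stage 13, 6.42 at stage 14 and 35.0 at stage 15. In the hind limb it was 4.48, 5.16 and 12.8. Of the 101 genes, 89 had their highest group mean in the stage 15 forelimb, as did 50.7% of all tested genes that leaned to the forelimb at stage 15. The choice of the genes for their stage 15 forelimb level, after a filter on stage 15 counts, enters the stage 15 values of both limbs. The 21 lower genes had medians of 6.18, 22.4 and 15.9 in the forelimb and 29.9, 49.8 and 64.9 in the hind limb, and 11 of them had their highest group mean in the stage 15 hind limb, as did 28.5% of all tested genes leaning that way.

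**Figure D4:**
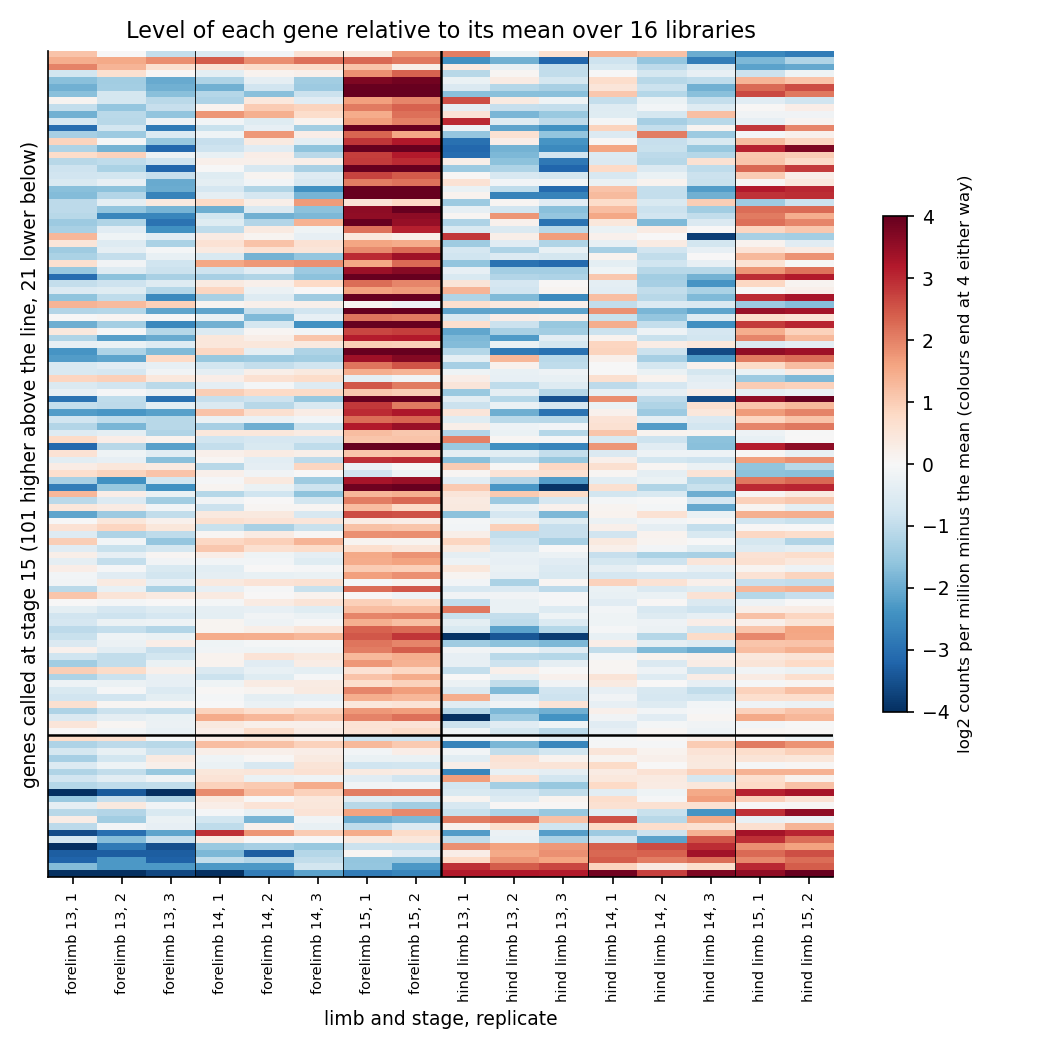
Level of each of the 122 genes called at stage 15 (vertical, 101 higher in the forelimb above the line and 21 lower below it) in each of the 16 bat libraries (horizontal, by limb, stage and replicate), as log2 CPM minus the gene's mean over the 16 libraries. The 2 stage 15 forelimb libraries are the highest for most genes above the line, where 89 of 101 genes peak.

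Comparing stage 15 with stage 14 within each limb shares the stage 15 libraries with the comparison that chose the genes, so the values of each limb are given side by side. In the forelimb the label was a number at stage 13 and a term at stage 15. At stage 14 it was a term for 2 of the 3 forelimb libraries. All hind limb labels were numbers, so only the forelimb steps go with a change of wording. The blocks of sample numbers follow the wording. In the forelimb the 101 genes had a median log2 change of 2.07, and 79 rose past the threshold while 3 fell, against 8.46% and 4.34% of all genes tested (12.8% in either direction). In the hind limb their median was 1.18, with 28 called up and 8 called down, against 3.74% and 1.23% (4.97% in either direction). The sign of the change was upward in both limbs for 81 genes (80.2%), upward in the forelimb and downward in the hind limb for 10 (9.9%), and downward in both for 10 (9.9%). Over all tested genes the shares were 36.9%, 12.5% and 37.8%, in the same order. Most genes higher in the forelimb at stage 15 thus leaned upward from stage 14 to 15 in the hind limb too, by a smaller amount. From stage 13 to 14, where no stage 15 library is used, their median was 0.46 in the forelimb, with 14 of 90 called up and 5 down (2.2% and 0.834% of all genes, 3.03% together), and 0.27 in the hind limb, with 7 of 91 called up and 4 down (4.22% and 6.42%, 10.6% together).

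For the genes lower in the forelimb the median from stage 14 to 15 was -0.46 in the forelimb. Of 19 tested there, 1 was called up and 4 down. In the hind limb the median was 0.32, with 5 called up and 1 down of 21. Of all genes tested, 8.46% were called up and 4.34% down in the forelimb, and 3.74% and 1.23% in the hind limb. The earlier step was upward in both limbs. Between stages 13 and 14 the median was 1.27 in the forelimb, with 9 of 19 called up and 0 down. In the hind limb it was 0.79, with 5 of 21 called up and 1 down. Of all genes tested at this step, 2.2% were called up and 0.834% down in the forelimb, and 4.22% and 6.42% in the hind limb. The medians thus had opposite signs in the limbs at the later step and the same sign at the earlier one, and this contrast between the steps was not tested. Here too only the forelimb steps go with a change of label wording.

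Since the wording of the label and the limb go together at stage 15, the stage 14 forelimb gives the one view of the wording within a limb and stage, with 2 libraries labelled by the term early-stage (ES) and 1 by its number. Relative to the mean of the stage 14 hind limb libraries, the 101 genes had a median of 0.14 and 0.30 on the log2 scale in the ES libraries and 0.18 in the library with a number. The value of the numbered library lay between the others, and those of the hind limb libraries themselves ran from -0.27 to 0.35. For the 21 lower genes the medians were -0.34 and -0.20 in the ES libraries and -0.12 in the numbered one, which lay outside the ES values. With 1 library against 2, at another stage, this view cannot separate the wording from the limb at stage 15. In the stage 15 forelimb libraries, where the genes were chosen, the medians were 1.24 and 1.42 for the first list and -1.24 and -1.30 for the second.

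The number of genes called at stage 15 moved with the fit. DESeq2 called 202 genes and kept all 122, and RLE factors in place of TMM gave 129 and kept all 122. Thinning every library to the lowest total left fewer genes called, but 103 of the 122 were still among them. None of the 122 genes changed direction in any alternative fit in which it was tested, but these fits draw on the same stage 15 libraries. In those libraries the limbs did not overlap for any of the 122, so the direction was largely set by the choice of the genes. Without each of the 4 libraries in turn, 40 of them (33 higher, 7 lower) were called every time, and 7 (4 higher, 3 lower) were called in every fit apart from the one limited by length.

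**Figure D5:**
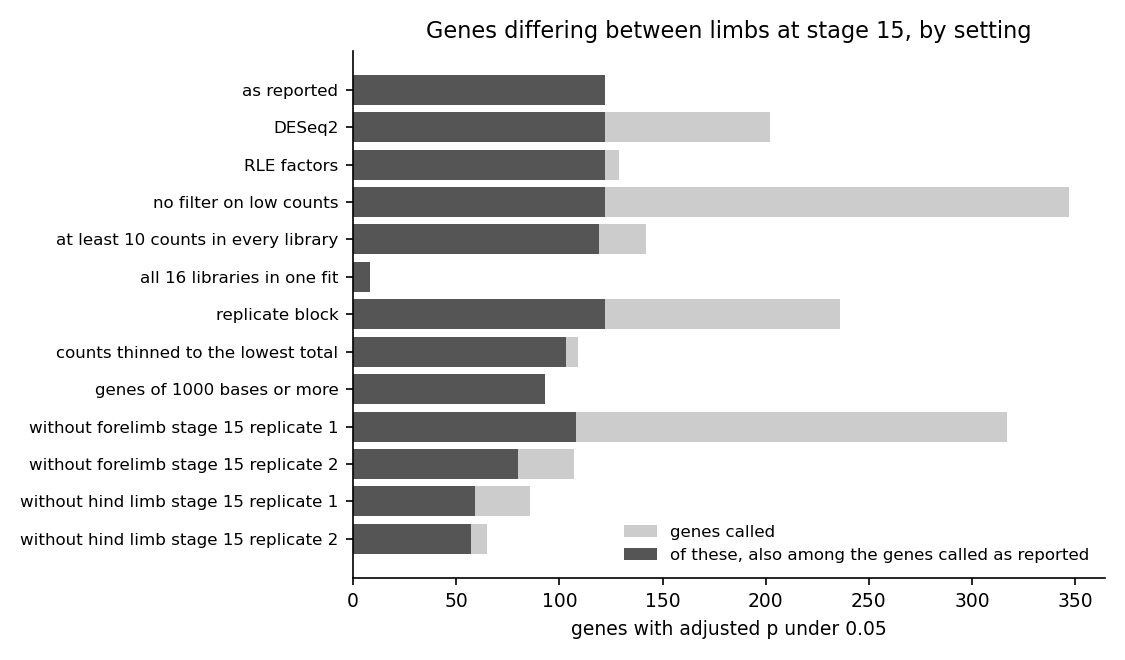
Number of genes with an adjusted p under 0.05 between the limbs at stage 15 (horizontal axis) for each way of fitting the data (vertical axis), with the part that is also among the 122 genes of the reported fit in dark grey. Counts run from 8 with all 16 libraries in one fit to 347 with no filter on low counts.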

How the data were processed

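The authors trimmed the reads, pooled the bat libraries into a de novo Trinity assembly, kept sequences matching SwissProt proteins and ran RSEM, which uses bowtie internally. Versions are not given in the sources used here. Each deposited gene table holds expected counts (estimated reads per gene, not normalized), the authors' FPKM with RSEM's intervals, and lengths. The deposited TPM and posterior mean columns were not used.

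Expected counts were rounded and tested in edgeR 4.0.16 (R 4.3.3) by the quasi-likelihood test with robust fitting and TMM factors, on the libraries of the groups compared only. Genes needed a count of at least 10 in 2 libraries at stage 15 and in 3 in the other limb comparisons, and an adjusted p under 0.05 over all genes tested was called. The scripts were tested on simulated data. Standard errors are the log2 fold change over the square root of edgeR's F. CPM (counts in 1000000) used TMM factors of the 4 stage 15 libraries or, across stages, of all 16, with a prior count of 2 on the log2 scale. Within a limb, replicates were compared as CPM plus 0.5. Groups came from the labels, and the 4 stage 14 and 15 forelimb libraries with the terms ES and LS were placed by the protocol.

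The comparison, gene lists and tests were chosen with earlier results of these data known. The named genes were, in each direction, the called gene with the smallest p-value and the one with the largest fold change (or the next), given 10 counts in all 4 libraries and one direction in all 4 pairs. Alternatives were DESeq2 1.42.0, RLE factors, other count filters, all 16 libraries, a replicate block, leave-one-out, thinning, genes of 1000 bases or more and number-labelled libraries. Python 3.11.15 and matplotlib 3.10.9 drew the figures. Files of other species were not used here.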

Additional observations from a re-analysis of the deposited data

How the results depend on the processing

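Of 158 alternative values, 39 concern the named genes and none of these changed its call, and 78 others stayed within 1.5 times the reported count or within the spread between libraries. At stage 15 (122 genes) the count was 202 by DESeq2, 347 with no filter on low counts, 8 with all 16 libraries in one fit and 65 to 317 with a library left out: 65 without replicate 2 of the hind limb and 317 without replicate 1 of the forelimb. At stage 14 (23 genes) it was 176 by DESeq2, 35 with no filter, 4 with number-labelled libraries only and 9 to 45 with a library left out. It fell to 10, 12 and 14 without forelimb replicates 1, 2 and 3, was 9 without hind limb replicate 1, and rose to 45 without hind limb replicate 3. At stage 13 (11 genes) it was 127 by DESeq2, 34 with no filter, 5 with 10 counts in every library, 59 with all 16 libraries and 5 to 1144 with a library left out. The value 1144 came without forelimb replicate 3, while 6 and 5 were found without forelimb replicates 1 and 2, and 7 without any single hind limb replicate. Where 1 library of a limb was left, it was assumed to vary like the others.

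For the interaction of stages 15 and 13 (0 genes by edgeR) the counts were 64 by DESeq2, 2 with RLE factors, 27 with no filter, 1 with 10 counts in every library, 9 with all 16 libraries, 1 after thinning and 0 to 37 with a library left out, with 37 without forelimb stage 13 replicate 3, 7 without hind limb stage 13 replicate 2, 3 without forelimb stage 13 replicate 2 and 1 without hind limb stage 13 replicate 1. For stages 15 and 14 (0 genes by edgeR) they were 58 by DESeq2, 7 with no filter and 0 to 25 with a library left out, with 25 without hind limb stage 14 replicate 3 and 5 without forelimb stage 15 replicate 1. The stage 14 median of the genes higher in the forelimb ran from 0.16 to 0.33 with a library left out, and that of the lower genes from -0.33 to -0.058. The stage 13 median of the genes higher in the forelimb ran from -0.14 to 0.11 with a library left out, and that of the lower genes from -0.94 to -0.41. The cause of each change was not tested.

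The replicate numbers were not taken to pair the samples: the correlation of same-numbered libraries' deviations was 0.21 at stage 15, where 2 libraries a limb give a single value, -0.085 to 0.61 at stage 14 and -0.20 to 0.17 at stage 13. With the replicate number as a block 236 genes were called at stage 15, including all 122, and 2 for the interaction of stages 15 and 14. Depth limits genes below about 10 counts, which were not tested.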

Other observations

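Some of the largest limb differences at stage 15 rested on 1 forelimb library and were not called. Of the tested genes that differed at least 8-fold, 9 were not called, 8 of them higher in the forelimb, and for 4 of these the 2 forelimb libraries differed at least 8-fold from each other. In each of the 4, replicate 2 was the high library. Their counts in forelimb replicates 1 and 2 and in hind limb replicates 1 and 2 were, in this order, 4, 2405, 12 and 9 for one gene, 13, 2392, 15 and 22 for another, 11, 1303, 11 and 8 for one more, and 11, 775, 22 and 9 for the last. These genes were chosen after their values were seen, and none of them is named.

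One of the 4 was either high or nearly absent in each library of the series. It stood between 96.4 and 148 CPM (counts in 1000000) in 8 of the 16 bat libraries and at 1.30 or below in the other 8. The 8 libraries with the gene were replicate 2 of the stage 13 forelimb, all 3 stage 14 forelimb libraries, all 3 stage 14 hind limb libraries and replicate 2 of the stage 15 forelimb. The gene was thus high in 6 of 6 libraries at stage 14, 1 of 6 at stage 13 and 1 of 4 at stage 15, and among libraries of 1 limb and stage it split those of the stage 13 and the stage 15 forelimb. The other 3 genes were high in replicate 2 of the stage 15 forelimb alone, at 145, 78.7 and 46.8 CPM, against at most 5.32 in any other library.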
